A study of Homo sapiens with 6 samples.

Results

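A set of 10 genes is described here as the antiviral TRIM genes: TRIM5, TRIM14, TRIM21, TRIM22, TRIM25, TRIM26, TRIM38, TRIM56, TRIM69 and PML, which is also called TRIM19. They were chosen by name, with earlier results of these data known. All 10 were found by Ensembl identifier among the 61541 genes listed in each count file. RNA was measured in RCC4, an established clear cell renal carcinoma line, by direct RNA nanopore sequencing, in which native poly(A) RNA strands are read without being copied into cDNA. A group of 3 cultures was untreated. The other group of 3 received 2 cytokines at once for 24 h, interferon gamma (IFNγ) at 1000 U/mL and tumour necrosis factor (TNF) at 25 ng/mL. The labels call the 3 cultures of each group biological replicates, each made from 3 flasks. All 6 libraries come from a single cell line, and no culture received 1 cytokine alone, so effects of IFNγ and of TNF cannot be told apart. The names in all 6 file headers, treated libraries included, carry the word dmso, whereas the labels mention no vehicle.

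TRIM proteins share a tripartite motif, a RING domain followed by B-box zinc fingers and a coiled coil. The RING domain recruits a ubiquitin-loaded E2 enzyme, which makes most of the family E3 ubiquitin ligases. Several bind viral components directly, and others place ubiquitin chains on the sensors and adaptors that carry the interferon and NF-kappaB signals. Transcription of many is raised by interferons, through transcription factors that bind the interferon-stimulated response element (ISRE) and the gamma-activated site (GAS).

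Total counts ran from 3626000 to 4406296 per library, and levels are given in CPM, the count of a gene scaled to a common library size, from library sizes normalised by TMM, a method that corrects for composition. Untreated replicate 3 stood apart from untreated replicates 1 and 2: its counts differed from theirs with a chi-square per degree of freedom of 27.7 and 24.1, against 3.79 between replicates 1 and 2. Among treated libraries the values were 11.5 to 18.0. Values without that library are given below. Of the 11 epithelial and renal carcinoma markers, none was at 0 in all libraries, and their summed level was 7621 to 9259 CPM in untreated and 11280 to 15864 CPM in treated libraries. Most of that sum was VIM (mean 4616 CPM untreated, 7314 treated) and NNMT (999 and 3116 CPM), both called higher. The median log2 fold change of the list was -0.01, and PAX8 (-0.79, adjusted p 0.0316) and KRT19 (-1.08, adjusted p 0.00995) were called lower. All 5 endothelial markers were at 0 in all 6 libraries, as were 8 of 11 leukocyte markers, PTPRC among them, and 4 of 6 fibroblast markers, COL1A2 and DCN among them. The summed leukocyte markers ran from 0 to 0.262 CPM in untreated and from 0.285 to 0.677 CPM in treated libraries. The summed fibroblast markers ran from 54.8 to 74.5 and from 27.4 to 49.1 CPM, and came from COL1A1 and PDGFRB. PDGFRB was called lower (log2 fold change -1.91, adjusted p 0.0049), and COL1A1 was not called (-0.62, adjusted p 0.23).

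Promoter windows from RefSeq (GRCh38.p14), which span 250 bases before to 50 bases after the start of a gene, were matched for 8 of the 10 members; TRIM22 and PML had no entry. The windows of TRIM5 and TRIM69 lie inside the counted spans of these genes, and the 5′ ends of those spans were not searched. The ISRE core was searched as GAAA, any 2 bases and GAAA again, GAS as TTCNNNGAA and the NF-kappaB element as the kappaB consensus, each on both strands, and matches to the same motif may overlap. An ISRE match was present in 5 of the 8 windows, those of TRIM21, TRIM69, TRIM14, TRIM26 and TRIM5, whereas 3.57% of all 35116 windows in the table held one. By gene, the share was 3.87% of 7966 tested genes with a window, 18.8% of 414 that were called higher in treated cells, and 2 of 21 other tested TRIM genes. No member window held a GAS match (7.66% of all windows), and 1 held a kappaB match, that of TRIM14 (11.3% of all windows). By gene, GAS was matched in 8.22% of tested genes, 18.4% of those called higher and 6.25% of those called lower. For kappaB these shares were 17.4%, 26.1% and 24.5%. Of the 21 other tested TRIM genes, 5 held GAS and 2 held kappaB. These are letter matches and do not show binding.

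The stretches that hold the ISRE matches are shown because matches occur both in members that rose and in members that did not pass the test. Each is written 5′ to 3′ on the strand of its gene, with the matched bases in capitals; a match that reads TTTC, any 2 bases and TTTC is the ISRE core on the opposite strand. The first is cut to 30 bases, and the others are the 250 bases before the start.
TRIM21: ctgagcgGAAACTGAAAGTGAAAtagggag
TRIM69: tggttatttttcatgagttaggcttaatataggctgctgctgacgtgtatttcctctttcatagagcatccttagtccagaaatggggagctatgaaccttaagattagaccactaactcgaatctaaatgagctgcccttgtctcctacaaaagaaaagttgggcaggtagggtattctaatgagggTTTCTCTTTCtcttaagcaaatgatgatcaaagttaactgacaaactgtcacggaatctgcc
TRIM14: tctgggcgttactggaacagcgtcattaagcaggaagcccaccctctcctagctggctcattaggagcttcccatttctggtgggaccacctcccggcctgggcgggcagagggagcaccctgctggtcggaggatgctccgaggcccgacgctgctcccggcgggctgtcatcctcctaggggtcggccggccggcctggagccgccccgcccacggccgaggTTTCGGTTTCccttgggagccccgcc
TRIM26: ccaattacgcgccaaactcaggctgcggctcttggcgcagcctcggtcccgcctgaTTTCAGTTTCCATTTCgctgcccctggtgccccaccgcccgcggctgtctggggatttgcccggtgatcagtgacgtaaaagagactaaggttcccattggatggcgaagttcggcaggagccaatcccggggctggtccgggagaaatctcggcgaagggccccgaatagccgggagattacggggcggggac
TRIM5: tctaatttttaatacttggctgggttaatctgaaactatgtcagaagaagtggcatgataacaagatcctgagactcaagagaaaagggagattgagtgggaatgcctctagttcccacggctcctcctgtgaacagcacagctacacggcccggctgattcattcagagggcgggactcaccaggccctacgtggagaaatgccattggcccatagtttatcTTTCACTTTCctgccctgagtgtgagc

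The TRIM21 stretch is chr11:4393663-4393692 on the minus strand and covers bases 11 to 40 after the start, where a pair of matches overlap at bases 18 to 33. The TRIM69 stretch is chr15:44736278-44736527 on the plus strand, with its match at -62 to -53. The TRIM14 stretch is chr9:98119223-98119472 on the minus strand, with its match at -26 to -17. TRIM26 (chr6:30213407-30213656, minus strand) has a pair of overlapping matches between -194 and -179, farther from the start than in the other 4. TRIM5 (chr11:5685075-5685324, minus strand) has a match at -27 to -18, nearly the same place as in TRIM14. The RNA of TRIM5, with 8 to 23 counts per library, did not pass the test described next. Its difference in change from TRIM14 was not tested. The windows of TRIM25, TRIM38 and TRIM56, which all rose, held none of the 3 motifs. Whether the matches bear on the changes was not tested.

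**Figure D1:**
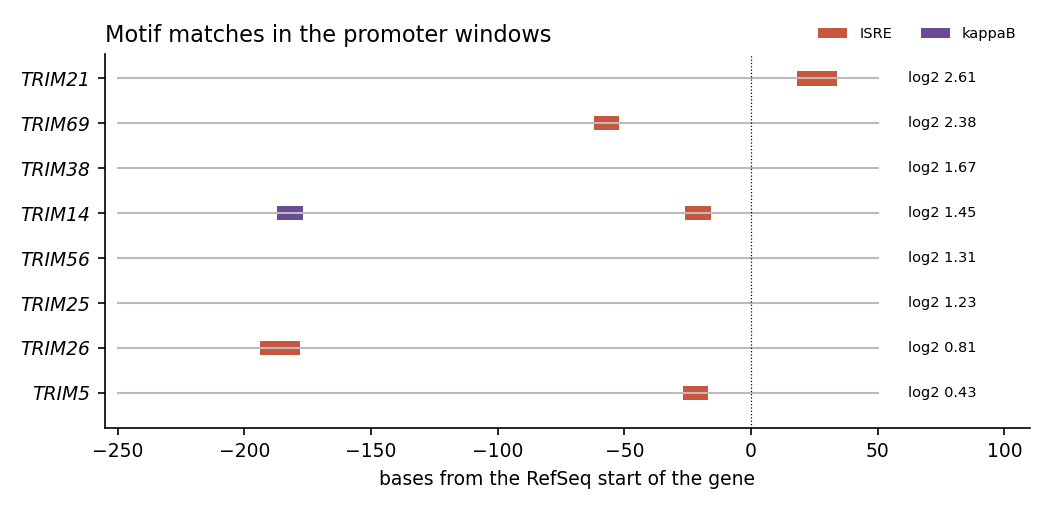
Motif matches in the promoter windows of the 8 members with an entry, as bases from the RefSeq start (x axis), with the log2 fold change of each gene at the right. ISRE matches lie between -27 and -17 in both TRIM14 and TRIM5, whose log2 fold changes were 1.45 (SE 0.21) and 0.43 (SE 0.44). The difference between these changes was not tested.

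Of the 10 members, 8 were higher in treated cells and none was lower, at an adjusted p under 0.05 over all 10067 genes tested (edgeR, quasi-likelihood). Over all genes tested, 5.58% were called higher and 2.55% lower by the same rule. Leaving out 1 library gave 358 to 733 higher and 96 to 445 lower genes, with 359 and 96 without treated replicate 3, 358 and 107 without untreated replicate 2, and 733 and 445 without untreated replicate 3. The lower genes were also fewer without treated replicate 1 (146) or treated replicate 2 (112). Scaling to library totals alone changes that balance, with 485 higher and 364 lower genes in place of 562 and 257, and shifts the median over all genes by -0.11 on the log2 scale; the members called were then 9, all higher. All 10 members passed the low-count filter, all 10 had positive log2 fold changes in each fit that tested them, and their median was 1.56, beside -0.03 for all genes tested. The groups did not overlap in CPM for 9 of the 10, beside 13.9% of all genes tested that lay wholly higher. In RNA from whole cultures, more cells with a transcript and more RNA per cell cannot be told apart. Without untreated replicate 3 the same 8 members were called.

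**Figure D2:**
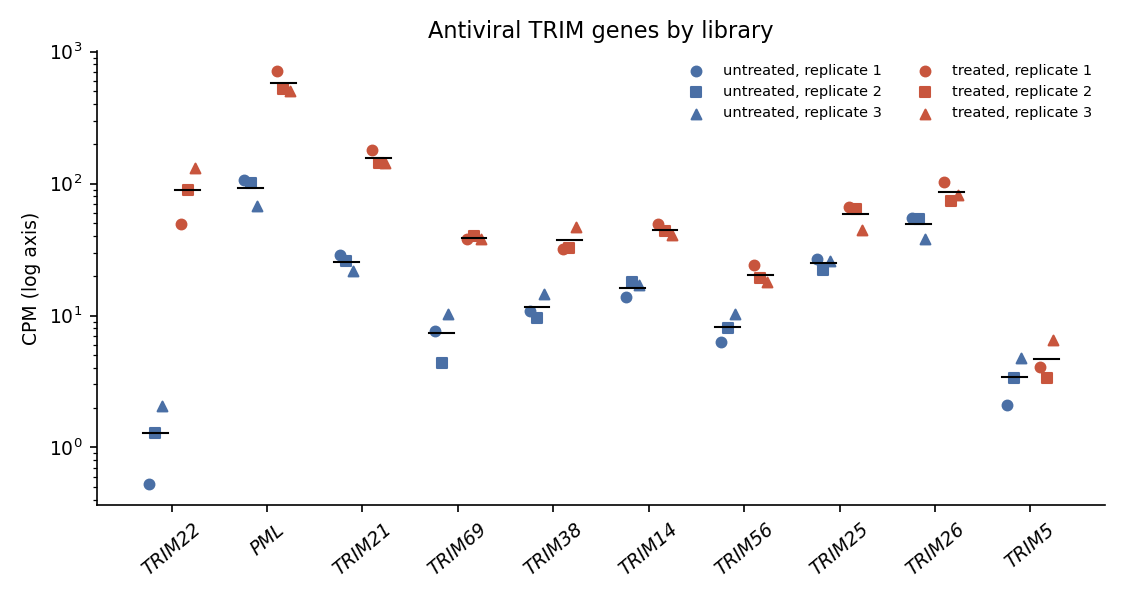
CPM (log axis) of the 10 members in each library, with replicates by marker shape and black lines for group means (n = 3 each). TRIM5 is the member whose groups overlap, and TRIM22 has the widest gap, from at most 2.05 CPM to at least 49.4 CPM.

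The members that meet viral components directly come first. TRIM22 (ENSG00000132274; chromosome 11, 5689697 to 5737089, plus strand) encodes a ligase close to TRIM5 in sequence and location that restricts several viruses, among them HIV-1. Untreated replicates 1, 2 and 3 held 2, 5 and 9 counts, whereas the treated ones held 171, 393 and 457. In CPM these were 0.524, 1.29 and 2.05 against 49.4, 88.7 and 130.3. The lowest treated library was 24.1-fold above the highest untreated one, and TRIM22 went from the lowest member in untreated cells to a level near that of TRIM26 in treated cells. Its log2 fold change was 6.05 (SE 0.51, adjusted p 0.000103), and 6.56 without untreated replicate 3. The size is set by few untreated counts, and the treated libraries themselves spanned 2.64-fold, the widest span among the members. Exons of the olfactory receptor gene OR56B1 cover 64.2% of the last 1000 exonic bases of TRIM22 on the same strand; OR56B1 had 0 counts in all 6 libraries, and reads that touch both genes may be left uncounted.

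TRIM21 (ENSG00000132109; chromosome 11, 4384897 to 4393702, minus strand) encodes the cytosolic antibody receptor, which binds the Fc part of antibodies carried into the cell on viruses and directs the complex to the proteasome. Its levels were 28.8, 25.9 and 21.9 CPM in untreated and 179.6, 143.5 and 144.0 CPM in treated replicates. The groups were far apart, and replicates within each lay within 1.32-fold. The log2 fold change was 2.61 (SE 0.20, adjusted p 5.93e-05), a 6.10-fold rise with the smallest adjusted p of the 10.

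The counted span of TRIM5 (ENSG00000132256; chromosome 11, 5663195 to 5938619, minus strand) contains that of TRIM22 on the opposite strand. TRIM5 encodes the restriction factor that recognises retroviral capsids. Its counts were 8, 13 and 21 without and 14, 15 and 23 with treatment, or 2.09, 3.36 and 4.78 against 4.04, 3.39 and 6.56 CPM. The groups overlapped, and treated replicate 2 lay below untreated replicate 3. The log2 fold change of 0.43 (SE 0.44, adjusted p 0.704) did not pass the test, and ran from 0.12 to 0.75 over the alternatives. The others of this chromosome 11 group, named for their place, gave little. Counts of TRIM6 were 8, 14 and 30 without and 1, 14 and 9 with treatment (adjusted p 0.485). TRIM34 had 0 counts in all 6 libraries, and the read-through gene TRIM6-TRIM34 covers 100% of its last 1000 exonic bases on the same strand.

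TRIM69 (ENSG00000185880; chromosome 15, 44728988 to 44767829, plus strand) encodes a ligase known to restrict vesicular stomatitis virus. Its levels were 7.59, 4.40 and 10.2 CPM in untreated and 37.8, 40.4 and 38.2 CPM in treated replicates. The treated libraries agree within 1.07-fold, the narrowest span of the 10 members, whereas the untreated ones spanned 2.33-fold on 17 to 45 counts. The log2 fold change was 2.38 (SE 0.30, adjusted p 0.00133), and ran from 2.12 to 2.68 over the alternatives.

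PML (ENSG00000140464; chromosome 15, 73994673 to 74047827, plus strand) encodes the scaffold of PML nuclear bodies, SUMO-rich structures that trap incoming viral genomes. It had 107.3, 101.4 and 67.2 CPM in untreated and 708.4, 522.3 and 504.6 CPM in treated replicates. PML held the most counts of the 10 members in both groups, with 295 to 410 counts in untreated and 1769 to 2453 in treated libraries. The lowest treated library was 4.70-fold above the highest untreated one. The log2 fold change was 2.65 (SE 0.24, adjusted p 0.000175), a 6.29-fold rise, and 2.46 without untreated replicate 3, in which PML was lowest.

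The next members act on sensors and adaptors of the interferon pathway. TRIM14 (ENSG00000106785; chromosome 9, 98069275 to 98119222, minus strand), a family member without a RING domain that works as an adaptor at mitochondria, had 13.9, 17.8 and 17.1 CPM in untreated and 49.1, 43.8 and 40.5 CPM in treated replicates. TRIM25 (ENSG00000121060; chromosome 17, 56836387 to 56914080, minus strand), the ligase known for its action on RIG-I and as a cofactor of the antiviral protein ZAP, had 26.7, 22.2 and 26.0 CPM against 66.1, 64.3 and 44.8 CPM. TRIM56 (ENSG00000169871; chromosome 7, 101085481 to 101097967, plus strand), which acts on the DNA sensing pathway of cGAS and STING, had 6.28, 8.01 and 10.2 CPM against 24.0, 19.4 and 18.0 CPM. In all 3 genes the treated libraries were above the untreated ones without overlap, by at least 2.27-fold for TRIM14, 1.68-fold for TRIM25 and 1.75-fold for TRIM56.

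The log2 fold change was 1.45 (SE 0.21, adjusted p 0.00285) for TRIM14. TRIM25 followed with 1.23 (SE 0.22, adjusted p 0.00832), and was not past the threshold without untreated replicate 2 (adjusted p 0.0592). TRIM56 had 1.31 (SE 0.27, adjusted p 0.0182) and was not past it without untreated replicate 2 (0.084), treated replicate 1 (0.069) or treated replicate 3 (0.0505), with log2 fold changes between 1.19 and 1.41 in those fits. TRIM25 shares 1.76% of its exonic bases with other genes on its strand, C17orf67 and the microRNA gene MIR3614, and none of its last 1000. C17orf67 was itself called higher (adjusted p 0.0128), with 7 to 12 counts in untreated and 23 to 35 in treated libraries.

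TRIM38 and TRIM26 lie on the short arm of chromosome 6, near and within the major histocompatibility complex. TRIM38 (ENSG00000112343; chromosome 6, 25962802 to 25991231, plus strand) is known as a brake on TNF and Toll-like receptor signalling through the adaptors TAB2 and TAB3. It had 10.7, 9.57 and 14.6 CPM in untreated and 31.8, 32.5 and 47.1 CPM in treated replicates, a log2 fold change of 1.67 (SE 0.27, adjusted p 0.00485). Its groups did not overlap, and replicate 3 was the highest library of each group. TRIM26 (ENSG00000234127; chromosome 6, 30184455 to 30213427, minus strand), reported to act on IRF3 and interferon beta induction, had 55.0, 54.3 and 38.3 CPM against 101.9, 74.3 and 81.6 CPM. All treated libraries were above all untreated ones, by 1.35-fold at the closest, but the log2 fold change of 0.81 (SE 0.22) had an adjusted p of 0.0569. It passed the threshold with DESeq2 (0.0235), with no filter beyond a single count (0.015), with the replicate number as a block (0.00506) and with library totals (0.0481).

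**Figure D3:**
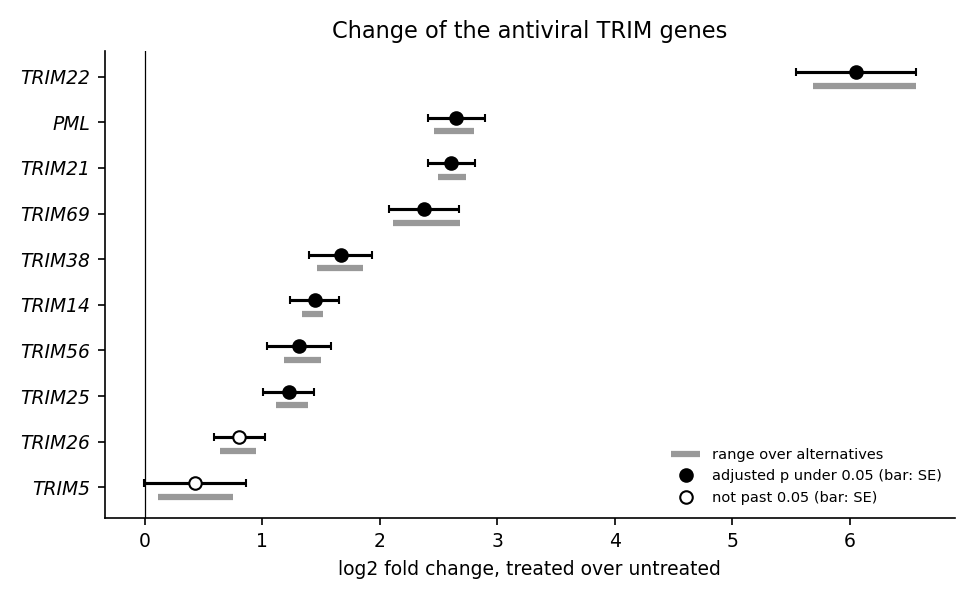
Log2 fold change of each member, treated over untreated (x axis), with SE bars; filled points passed an adjusted p of 0.05, and grey bars span the alternative fits. TRIM22 stands at 6.05, PML, TRIM21 and TRIM69 between 2.38 and 2.65, and the other 6 at 1.67 or below.

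Libraries did not rank the members alike. Treated replicate 1 was the highest treated library for 6 members (PML, TRIM21, TRIM14, TRIM56, TRIM25 and TRIM26), replicate 3 for TRIM22, TRIM38 and TRIM5, and replicate 2 for TRIM69. Untreated replicate 3, the library that stood apart, was the highest untreated library for TRIM22, TRIM69, TRIM38, TRIM56 and TRIM5, and the lowest for PML, TRIM21 and TRIM26. What sets these orders was not tested.

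For levels between genes, CPM was divided by exonic length in kilobases (CPM per kb), the length of all annotated exons of a gene together. A direct RNA read stands for 1 RNA molecule whatever its length, so this scale lowers genes with long annotated exons such as PML and TRIM25, and the order in CPM differs. By mean CPM the untreated order was PML (92.0), TRIM26 (49.2), TRIM21 (25.5), TRIM25 (25.0), TRIM14 (16.3), TRIM38 (11.6), TRIM56 (8.18), TRIM69 (7.41), TRIM5 (3.41) and TRIM22 (1.29). By mean CPM in treated cells it was PML (578.4), TRIM21 (155.7), TRIM22 (89.5), TRIM26 (85.9), TRIM25 (58.4), TRIM14 (44.5), TRIM69 (38.8), TRIM38 (37.1), TRIM56 (20.4) and TRIM5 (4.66). Per kb, TRIM21 was highest in untreated cells at 13.2 ± 1.80 CPM per kb (SD, n = 3 as for all values of this kind), followed by TRIM26 at 11.2 ± 2.16 and PML at 7.26 ± 1.71. TRIM14 (2.97 ± 0.384) and TRIM25 (2.01 ± 0.193) came next, then TRIM38 at 1.23 ± 0.278. TRIM69, TRIM56 and TRIM5 lay between 0.638 and 0.800 CPM per kb on average, and TRIM22 was lowest at 0.217 ± 0.128. Neighbours in this order overlapped between replicates for TRIM21 and TRIM26, and from TRIM38 through TRIM69 and TRIM56 to TRIM5. Per kb in treated cells the order was led by TRIM21 (80.5 ± 10.7), PML (45.6 ± 8.91), TRIM26 (19.6 ± 3.28), TRIM22 (15.1 ± 6.81) and TRIM14 (8.11 ± 0.791), with TRIM5 last at 0.872 ± 0.313. There the ranges of TRIM26, TRIM22 and TRIM14 overlapped in sequence, as did those of TRIM25, TRIM69 and TRIM38. TRIM22 was last of the 10 in untreated cells on both scales. In treated cells it was the third by CPM and the fourth per kb, with replicate ranges that overlapped those of TRIM26 on both. Its place in these orders may be too low in both groups, because reads that also touch OR56B1 may be left uncounted. Exons of OR56B1 cover 64.2% of the last 1000 exonic bases of TRIM22, and the size of any such loss was not tested.

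The rest of the family was the nearest comparison. Of 65 other TRIM genes, 42 had at least 1 count and 31 were tested, of which 2 were called higher and 1 lower (9.68%, beside 8.14% of all genes tested in either direction). Their median log2 fold change was 0.10, with TRIM31 at its fitted value or at its lower bound. TRIM31, a ligase of the histocompatibility region known for its action on the adaptor MAVS, was at 0 counts without treatment and at 13, 19 and 25 counts with it. That is 5.06 ± 1.81 CPM (SD, n = 3) and at least 6.76-fold higher than a level of 3 counts in each untreated library (adjusted p 0.00355). TRIM47, a ligase with a SPRY domain, went from 71.6 ± 14.4 to 195.3 ± 30.9 CPM (SD, n = 3 each). Its log2 fold change was 1.45 (SE 0.22, adjusted p 0.00339), the same to 2 decimals as that of TRIM14. TRIM55, known as a muscle ligase of the MURF group, went from 64.1 ± 10.6 to 20.5 ± 9.18 CPM (log2 fold change -1.63, SE 0.33, adjusted p 0.0165), and was not past the threshold without untreated replicate 2 (0.0677) or treated replicate 1 (0.0532). The most abundant others were TRIM28, the corepressor of KRAB zinc finger proteins (558.2 ± 176.1 against 452.5 ± 126.1 CPM, adjusted p 0.667), then TRIM47 and TRIM8 (114.4 ± 23.0 against 139.6 ± 17.2 CPM, adjusted p 0.534). MEFV, which encodes the TRIM family protein pyrin and was chosen after its values were seen, was at 0 counts without treatment and at 6, 11 and 9 counts with it. It was removed by the count filter, and had an adjusted p of 2.51e-05 with no filter beyond a single count.

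**Figure D4:**
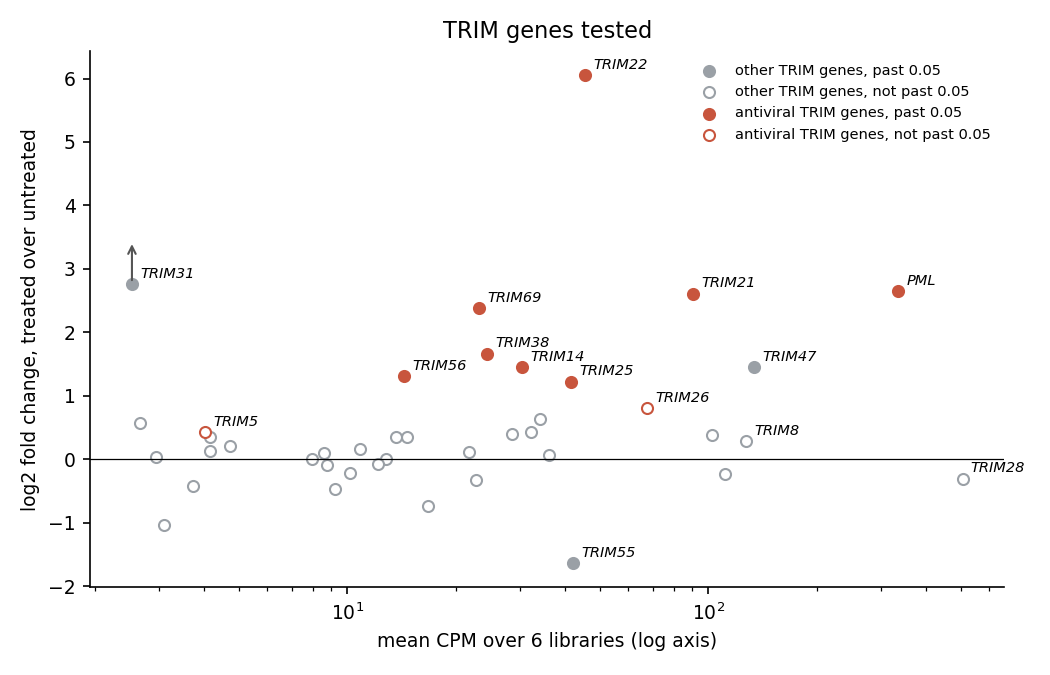
Log2 fold change against mean CPM (log axis) for the 41 TRIM genes tested, 10 members and 31 others; filled points passed an adjusted p of 0.05, and the arrow marks TRIM31, drawn at its lower bound. Most of the other TRIM genes lie near 0, and TRIM28, the most abundant, has a log2 fold change of -0.30.

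Partners of the members were read from lists. The PML body list holds residents of these nuclear bodies, the SUMO enzymes and relatives of SP100. Of its 15 genes, 13 were tested, and their log2 changes had a median of 0.17. Of the 13, 4 were called higher and none lower (30.8%, beside 8.14% of all genes tested). The 4 were SP110 (16.9 ± 6.28 to 115.6 ± 30.2 CPM, log2 fold change 2.77, adjusted p 0.000609), SP140L (1.67, 0.0055), the body component SP100 (1.56, 0.0291) and the SUMO-targeted ubiquitin ligase RNF4 (0.71, 0.0381). The adjusted p of SP100 missed the threshold with library totals (0.0737), and without untreated replicate 2 (0.122), treated replicate 2 (0.0897) or treated replicate 3 (0.121), while its log2 fold change ran from 1.38 to 2.01 over the alternatives. RNF4 was not past the threshold in any of the 6 fits that left out 1 library (0.0504 to 0.137), with log2 fold changes of 0.61 to 0.78 over the alternatives. Without untreated replicate 2, treated replicate 2 or treated replicate 3, the list held 2 calls, and 30.5% of the last 1000 exonic bases of RNF4 lie in exons of other genes on its strand.

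Among the ubiquitin E1 and E2 enzymes, 10 of 12 were tested, and the median of their log2 changes was 0.14. Of the 10, 1 was called higher and none lower (10%, beside 8.14% of all genes tested). It was UBE2L6, the E2 enzyme of ISG15 conjugation, which went from 75.1 ± 14.0 to 1146 ± 112.6 CPM (SD, n = 3 each). Its log2 fold change was 3.93 (SE 0.21, adjusted p 6.44e-06). The other 9 tested enzymes, UBE2D2, UBE2D3 and UBE2N among them, which many RING ligases use, did not pass, and without untreated replicate 3 the list held 2 calls. UBA7, chosen after its values were seen, was removed by the count filter. Its log2 fold change was 2.88 (adjusted p 0.04) at a filter of 1 CPM in 3 libraries. With no filter beyond a single count it was 2.89 (adjusted p 0.00413).

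The nucleic acid sensing list holds sensors, adaptors and kinases of pathways that TRIM ligases act on, and also IRF3, IRF7, ZC3HAV1 and RNF135. Of its 20 genes, 17 were tested. Their median log2 fold change was 0.81, and 7 were called higher and none lower (41.2%, beside 8.14% of all genes tested). DHX58, a helicase related to RIG-I, rose from 1.94 ± 0.968 to 36.9 ± 16.6 CPM, IRF7 from 12.8 ± 2.21 to 196.8 ± 57.6 CPM, STING1 from 46.1 ± 6.84 to 249.4 ± 82.9 CPM and ZC3HAV1, which encodes ZAP, from 11.3 ± 1.70 to 37.3 ± 4.02 CPM (SD, n = 3 each). Their log2 fold changes were 4.20, 3.94, 2.43 and 1.72, with adjusted p from 4.03e-05 for IRF7 to 0.00156 for ZC3HAV1. RIGI, the RNA sensor that TRIM25 acts on, was among the 3 not tested, with 1 count over the 6 libraries. Exons of another gene cover 97.9% of the last 1000 exonic bases of RIGI on the same strand.

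In the interferon signalling list 9 of 11 genes were tested, with a median of 0.76 on the log2 scale. Of the 9, 4 were called higher and none lower (44.4%, beside 8.14% of all genes tested). Among them, IRF1 had a log2 fold change of 5.29 (adjusted p 3.34e-06), STAT2 2.60 (0.00612) and the type I receptor subunit IFNAR2 1.96 (0.016). IFNAR2, which shares 41.4% of its exonic bases with the read-through gene IFNAR2-IL10RB, had 4 to 8 counts in untreated and 17 to 29 in treated libraries, and was not past the threshold without untreated replicate 2 (0.0952), treated replicate 2 (0.0643) or treated replicate 3 (0.0611). IRF9 had 0 counts in all 6 libraries, and exons of another gene cover 44.7% of its last 1000 exonic bases. Of 8 genes for type I and type III interferons, 5, IFNB1 among them, had 0 counts in all libraries, which allows up to 0.866 CPM in a single library. IFNL1, IFNL2 and IFNL3 had between 0 and 3 counts in every library, and no gene of this list was tested.

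**Figure D5:**
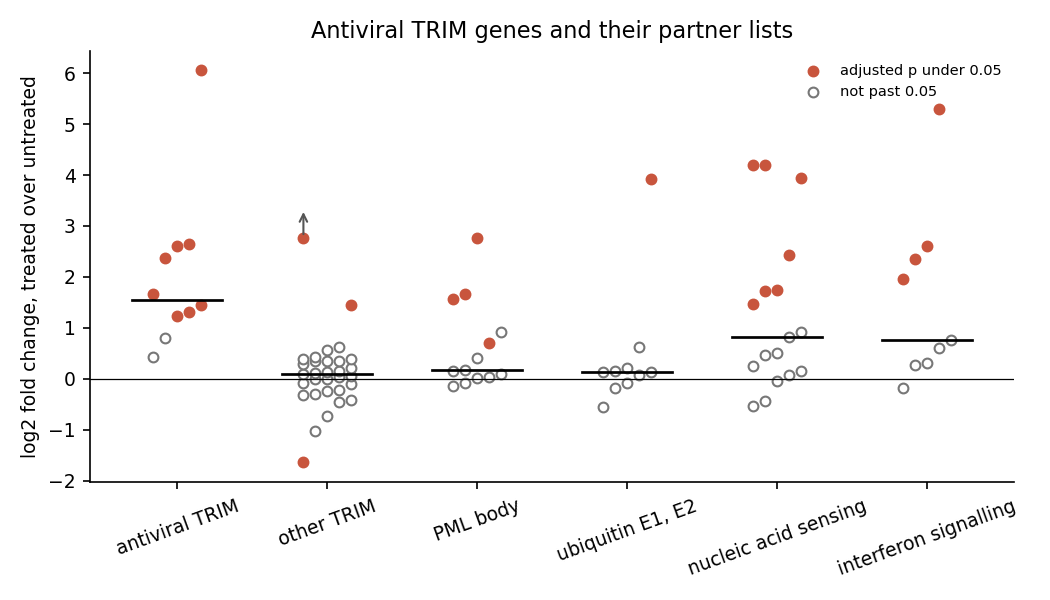
Log2 fold change (y axis) of every tested gene in the member list and 5 comparison lists, with filled points past an adjusted p of 0.05, a black line at the median of each list and an arrow at TRIM31, drawn at its lower bound. The median is 1.56 for the antiviral TRIM genes and between 0.10 and 0.81 for the others.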

How the data were processed

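The authors deposited counts of reads per gene from featureCounts 2.0.1 in long-read, strand-specific mode on exons of Ensembl release 105 (GRCh38), per the file headers. The submitters' processing notes name minimap2 2.24, SAMtools 1.16 and featureCounts 2.0.0. Input was 500 ng of poly(A) RNA, per the labels' protocols, read for 72 h and kept at a quality above 7, per the series' design text. Multi-mapping and multi-overlap counting were not set in the headers. Groups and replicate numbers come from the sample titles. Symbols were matched by identifier (61369 of 61541 in the gene table).

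Counts were tested with edgeR 4.0.16 in R 4.3.3: quasi-likelihood F test, TMM, filterByExpr, group alone, and Benjamini-Hochberg adjustment over the 10067 genes tested, with no adjustment over any list. Standard errors were taken as the size of the log2 change over the root of its F statistic. In simulated counts for these 10067 genes, 98 of 112 genes changed by 2 and 84 of 88 changed by 3 on the log2 scale were recovered, with 12 false calls. Smaller changes were not simulated, so these rates do not cover members with log2 fold changes below 2. Each simulated count was drawn on its own, so no simulated library was made to stand apart as untreated replicate 3 did. The rates do not cover that either. The limit for a count of 0 was 3 counts and covers counting error alone. Alternatives were DESeq2 size factors, library totals, 2 other filters, a replicate block, DESeq2 1.42.0, limma 3.58.1 voom, genes without same-strand exon overlap, and leaving out each library. Members, lists, motifs and tests were chosen with earlier results of these data known. Named genes were all members, the other TRIM genes past the threshold, the 3 most abundant other TRIM genes and, for each partner list, the 4 with the smallest adjusted p past the threshold and any that fell; others are named for a list or place and were chosen after their values were seen. A gene selected by this rule is not reported here.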

Additional observations from a re-analysis of the deposited data

How the results depend on the processing

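Over 14 alternatives, none of the 28 genes selected by the naming rule changed direction. Of their values, 363 stayed on their side of the threshold, 19 fell short of it and 4, all for TRIM26, passed it. The 8 members called became 6 to 8 without 1 library and 9 with library totals. The count over all genes was 819, and became 1328 with no filter beyond a single count and 455 to 1178 without 1 library, lowest without treated replicate 3 (455) and untreated replicate 2 (465). The PML body list held 4 calls, 2 among genes without same-strand exon overlap (9 tested) and 2 to 3 without 1 library. The E1 and E2 list held 1 call, 2 with no filter beyond a single count, 2 at a filter of 1 CPM in 3 libraries, 2 with DESeq2, and 1 to 2 without 1 library. TRIM5, TRIM22 and TRIM25 are not among genes without overlap, so that alternative gives them no value. With the replicate number as a block, 1513 genes, 9 members (TRIM26 added, adjusted p 0.00506) and 2 E1 and E2 genes were called. Whether the replicate numbers pair the libraries was not settled. Same-numbered libraries deviated together for numbers 1 (correlation 0.65) and 3 (0.37) but not 2 (-0.00). Correlations between differently numbered libraries ran from -0.67 to 0.41, and not every library correlated best with its own number. TRIM5 and TRIM22 had 21 counts or fewer in each untreated library, and the part of depth in their values was not tested.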
